A study of Mus musculus with 5 samples.

Results

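The set consisted of 36 genes of 21617 in the count table. They encode 16 integrin α chains, 8 integrin β chains, 8 laminin chains, both nidogens, fibronectin and vitronectin. The members were listed by gene name, with earlier results of these data known, and all 36 were in the table. The cells came from mouse foreign body granulomas, the inflammatory tissue that forms around an implant, and were profiled by droplet single-cell RNA sequencing of transcript 3′ ends. Granulomas were collected around silk at 4 weeks and 2 weeks, and around sponge at the same times. They were set against macrophages elicited with thioglycollate, an irritant that draws leukocytes into a body cavity. That control differs from the granulomas in tissue and stimulus at once, and these cannot be told apart. Each of the 5 groups was 1 library, so no spread between animals could be measured. Strain, sex, age and the number of animals pooled are not given in the labels.

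Integrins are heterodimers of an α and a β chain that join cells to the extracellular matrix or to other cells. The β2 integrins are restricted to leukocytes and bind ICAMs and complement fragments, while the β1 and αv integrins bind mainly fibronectin, collagens, vitronectin and laminins. Laminins are trimers of an α, a β and a γ chain that form the basement membrane beneath endothelium and around muscle and mural cells, where nidogens link them to type IV collagen.

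The libraries held 1873 cells for 4-week silk, 10231 for 2-week silk, 7701 for 4-week sponge, 12347 for 2-week sponge and 9039 for the control. Their median depth ran between 3818 and 7109 UMIs per cell, where a UMI is a counted transcript molecule, and it was highest in the control. UMIs were summed per library over the deposited classes Mo-Mac (monocytes and macrophages), Neutrophil, NK/T, B, Fibroblast, Endothelial and Myocyte, and scaled to UMIs per 1000000 (CPM). A class entered with at least 50 cells in a library. Mo-Mac and NK/T cells could be set against the control, Myocytes were compared only in sponge, and B cells were described only in the control. In all, 306 cells carried a barcode sequence found in another library, and leaving them out changed no count of members called. Intervals are 95% intervals that cover counting error only. A level resting on 100 UMIs has an interval of 81.4% to 122% of its value, and one resting on 1000 UMIs of 93.9% to 106%. Levels of different genes are not compared, since 3′ counts depend on each transcript. A member was called higher or lower where it had at least 50 UMIs over both libraries and a mean of at least 20 CPM, and differed at least 2-fold after 10 CPM was added to both levels. A call in a whole comparison needed the same direction in every contrast. In class sums, fewer cells of a type and less RNA per cell cannot be told apart.

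Of the 12 members that passed the filter in Mo-Mac cells, Itgax, Itgal and Itga5 were higher and Itga6 was lower in each of the 4 granulomas against the control, beside 6.14% of all genes called either way. Their median log2 ratio was 0.42, against -0.03 over all genes tested. With 50 CPM added in place of 10, Itgal alone was called in all 4. The 4 contrasts share 1 control library. Taken singly, 6 of 12 were called in 4-week silk, 7 of 12 in 2-week silk, 7 of 12 in 4-week sponge and 7 of 14 in 2-week sponge, where the backgrounds were 10.3%, 11.8%, 11.5% and 12.5%. Beside the 4 genes above, the calls were Fn1 higher and Itgb7 lower in all but 2-week sponge, Itgav higher in all but 4-week silk, and Itga1 and Lamc1 higher in 2-week sponge. In NK/T cells 12 members passed and Itgav was higher in each granuloma, beside 4.23% of all genes, with a median of -0.08 against -0.06. The single contrasts called 3 of 13, 5 of 14, 6 of 15 and 4 of 16 members in the same order, with backgrounds of 14.2%, 11%, 11.8% and 10.3%. Beside Itgav, Lamc1 was higher in all but 4-week silk, Itgb8 in both silk libraries, Itgb3 in 2-week silk and 4-week sponge, Fn1 in 2-week silk and Itgae in 4-week sponge, while Itga4 and Itga6 were lower in both sponge libraries and Itgam in 4-week silk. Itgb8 was higher in silk than in sponge at both times among 15 members that passed in NK/T cells, beside 0.358% of all genes, with a median of 0.34 against 0.05.

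No member was called at both times between silk and sponge in Mo-Mac cells (12 passed, 0.264% of all genes called), Fibroblasts (14 passed, 0.141%), Endothelial cells (19 passed, 0.410%) or Neutrophils (5 passed, 1.01%). Nor was any called in both materials between 4 and 2 weeks in Mo-Mac cells (13 passed, 0.393%), Fibroblasts (15 passed, 0.642%), Endothelial cells (20 passed, 0.857%), Neutrophils (10 passed, 4.23%) or NK/T cells (15 passed, 0.975%). These counts of 0 come from a fold rule with no test behind it, and single contrasts did hold calls, given with each gene.

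The class with the highest level differed between members. Averaged over the granulomas, 13 had their highest level in Fibroblasts, 7 in NK/T cells, 6 in Endothelial cells, 6 in Myocytes, 3 in Mo-Mac cells and 1, Lamb3, in Neutrophils. For some the libraries of the highest class did not overlap with those of the next. These were Itga9, Itga3, Itga6 and Lama5 in Endothelial cells, Itgb5, Itga11 and Lamc1 in Fibroblasts, Itga8, Itga1, Itga7 and Vtn in Myocytes, and Itga4, Itgb7, Itgae, Itgb8 and Itga2 in NK/T cells. The remaining members overlapped with the next class in at least 1 library, among them Itgb2, Itgam and Itgax. Myocyte levels rest on 2 libraries against 4 for the other classes, and a range over fewer libraries overlaps less easily. The classes were defined by the authors from expression. The same counts over all genes are not given here, so these counts only describe the members. Itgb6, which forms αvβ6 in epithelium, reached at most 0.316 CPM in the classes compared.

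**Figure D1:**
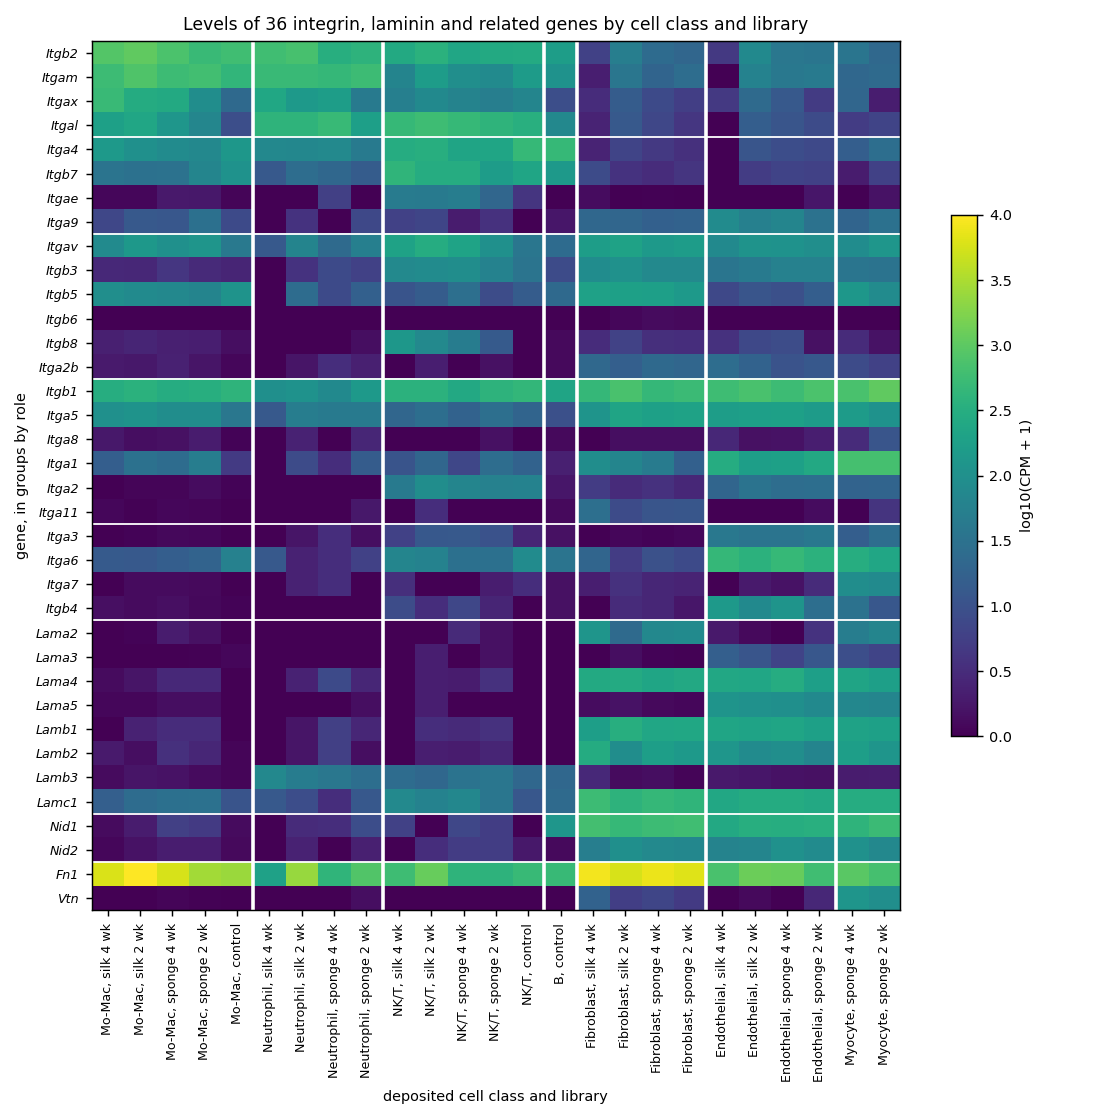
Levels of the 36 members as log10(CPM + 1), with genes down the page in groups by role and each deposited class and library with at least 50 cells across it. Itgb2 is bright in the leukocyte classes. Lama4, Lamb1, Lamb2, Lamc1 and both nidogens are brighter in Fibroblasts, Endothelial cells and Myocytes than in any leukocyte class. Lamb3 is highest in Neutrophils on average over the granulomas, but in 2-week sponge NK/T cells lie above them (35.7 against 27.3 CPM).

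In order to follow the β2 leukocyte integrins, the shared β chain and its 3 measured α partners were examined together. Itgam (chr7:128062640-128118491, GRCm38, plus strand) encodes αM, which forms the complement receptor Mac-1. Itgax (chr7:128129547-128150657, plus strand) encodes αX or CD11c, a chain long used as a dendritic cell marker. They are neighbours, 11055 bases apart with no protein-coding gene between them. Itgal (chr7:127296260-127335138, plus strand) encodes αL of LFA-1, the ICAM receptor of leukocytes. The 250 bases before the RefSeq start of the neighbouring pair (GRCm38.p6) are shown because the levels of these genes differed between libraries in unlike ways. Capitals mark GAGGAA, a core bound by ETS factors such as PU.1, and TGANTCA, an AP-1 motif, on either strand.
Itgam promoter, chr7:128062390-128062639, plus strand: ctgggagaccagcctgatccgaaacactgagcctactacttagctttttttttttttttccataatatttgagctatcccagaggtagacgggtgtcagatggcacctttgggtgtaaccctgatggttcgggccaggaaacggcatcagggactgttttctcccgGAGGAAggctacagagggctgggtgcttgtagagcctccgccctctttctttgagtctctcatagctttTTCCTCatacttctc
Itgax promoter, chr7:128129300-128129549, plus strand: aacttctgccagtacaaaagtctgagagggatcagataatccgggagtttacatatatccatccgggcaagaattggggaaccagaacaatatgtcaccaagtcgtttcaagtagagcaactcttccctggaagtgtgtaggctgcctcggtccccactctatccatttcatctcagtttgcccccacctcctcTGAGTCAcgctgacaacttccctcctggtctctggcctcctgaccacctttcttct
The Itgam window held 2 matches to GAGGAA, and the Itgax window held 1 to the AP-1 motif. The ETS core was in 23.3% and the AP-1 motif in 6.75% of 32851 RefSeq windows of this length, and in 14 and 1 of the 27 windows found for 24 members. A match is a description of the letters and not a measured site.

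Itgax and Itgal were higher in granuloma Mo-Mac cells than in the control, by more than 2-fold in each library. Itgax had 524 CPM in 4-week silk, 288 in 2-week silk, 269.8 in 4-week sponge, 89.8 in 2-week sponge and 22.6 in the control. All 4 granulomas lay above the control, and the lowest was 2-week sponge. Its log2 ratios to the control were 4.53 (4.45 to 4.62), 3.67 (3.60 to 3.75), 3.58 (3.50 to 3.66) and 1.99 (1.91 to 2.07) in the same order of granulomas. Itgal had 190.2 CPM in 4-week silk, 231 in 2-week silk, 125 in 4-week sponge, 67.4 in 2-week sponge and 8.16 in the control. Again every granuloma was above the control, and both silk libraries were above both sponge libraries. The log2 ratios of Itgal to the control were 4.54 (4.40 to 4.69), 4.82 (4.70 to 4.94), 3.94 (3.81 to 4.07) and 3.04 (2.92 to 3.17) in that order.

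The partners differed less. Itgam had 554 CPM in 4-week silk, 790.2 in 2-week silk, 562 in 4-week sponge, 618 in 2-week sponge and 435 in the control. It was higher in each granuloma than in the control by less than 2-fold, with log2 ratios between 0.35 and 0.86. Part of its exons, 3450 bases, is shared with Gm49368 on the same strand, and how the counting treated such reads is not given in the sources used here. Itgb2, at chr10:77530252-77565708 on the plus strand, had 853 CPM in 4-week silk, 1041 in 2-week silk, 731 in 4-week sponge, 509 in 2-week sponge and 589 in the control. The granulomas lay on both sides of the control, with 2-week sponge below it. Of the UMIs of the 3 α chains, Itgax made up 41.3% in 4-week silk, 22.0% in 2-week silk, 28.2% in 4-week sponge, 11.6% in 2-week sponge and 4.85% in the control.

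UMIs of Itgax were in 49.6%, 44.9%, 32.3%, 16.7% and 10.7% of Mo-Mac cells in the order 4-week silk, 2-week silk, 4-week sponge, 2-week sponge and control. After each cell was thinned to 1000 UMIs, the shares were 24.5%, 18.0%, 14.8%, 4.92% and 1.67% in that order. Fibroblasts, which should lack the gene, had a UMI in 2.84%, 9.90%, 5.42% and 3.39% of cells in the 4 granulomas, and in 0.505%, 1.51%, 0.750% and 0.329% after thinning. The Mo-Mac share exceeded that of Fibroblasts in every granuloma. Median depth was 4217, 4337, 3078, 4729 and 7749 UMIs per Mo-Mac cell in the order of libraries above, so the deepest cells, those of the control, had the lowest share. The summed level of 6 macrophage markers was 19645, 18027, 14972, 14188 and 22816 CPM in that order.

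**Figure D2:**
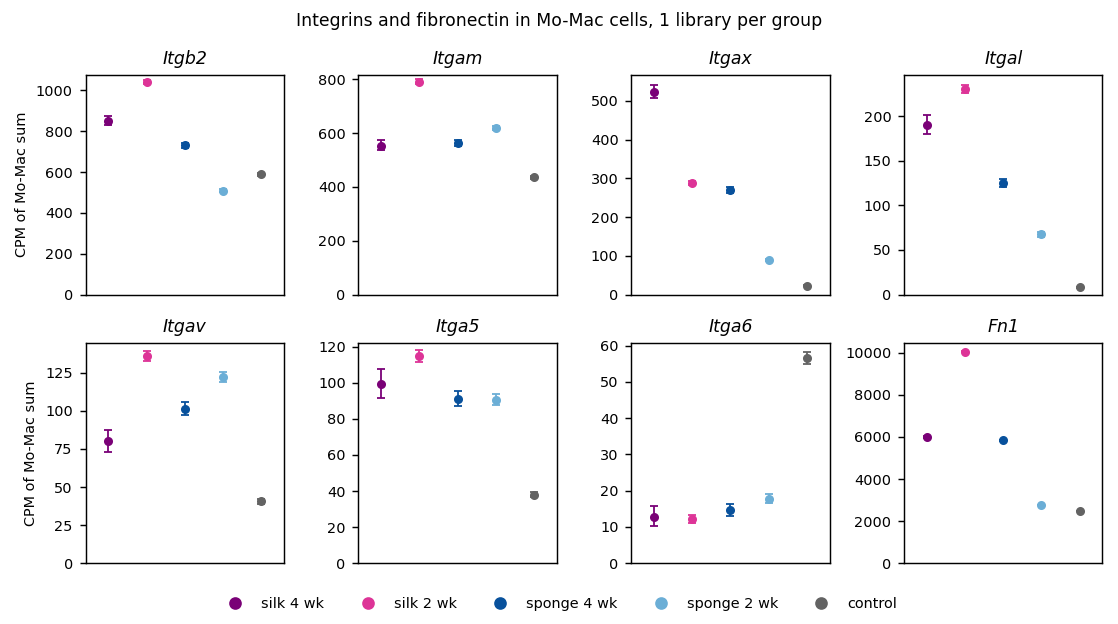
CPM of 8 members in Mo-Mac cells, 1 point per library with its 95% Poisson interval (counting error only), on axes that start at 0. Itgax and Itgal are above the control in all 4 granulomas, Itgam and Itgb2 differ by less than 2-fold from it, and Itga6 is below it in all 4.

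The deposited Mo-Mac class is made of subclusters whose shares differ between libraries. They were defined by the authors from expression, members included, so levels across them are a description. C7 is led by Mmp12, Cxcl3 and Itgax, C6 by Ccl24 and Flrt3, C5 by Ccl8, Mrc1 and Folr2, C4 by Ly6i and Nos2, C8 by Mmp9, Stmn1 and Top2a, and C3 by the monocyte genes Chil3, Ly6c2 and Plac8. The control consisted of C1, led by Ltc4s and Cd5l, with smaller C2 and C10. In C7, Itgax had 659 CPM in 4-week silk, 329 in 2-week silk, 371 in 4-week sponge and 249 in 2-week sponge. In C6 it had 244 CPM in 4-week silk, 134 in 2-week silk, 88.9 in 4-week sponge and 46.6 in 2-week sponge. In C3 it lay between 7.83 and 37.1 CPM, and the control subclusters held 13.8 in C1, 47.9 in C2 and 55.0 in C10.

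Between C3 and C7, Itgal ran the other way. In C3 it had 691 CPM in 4-week silk, 610.0 in 2-week silk, 573 in 4-week sponge and 399 in 2-week sponge. In C7 it had 154 CPM in 4-week silk, 229.6 in 2-week silk, 114 in 4-week sponge and 70.9 in 2-week sponge. The ranges of C3 and C7 did not overlap for either gene. C1 of the control held 7.83 CPM of Itgal and C2 held 4.50. Itga4, the chain of VLA-4 that binds VCAM-1, had 556 CPM in 4-week silk, 418 in 2-week silk, 383 in 4-week sponge and 276 in 2-week sponge in C3, against 136 CPM in C1 of the control.

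**Figure D3:**
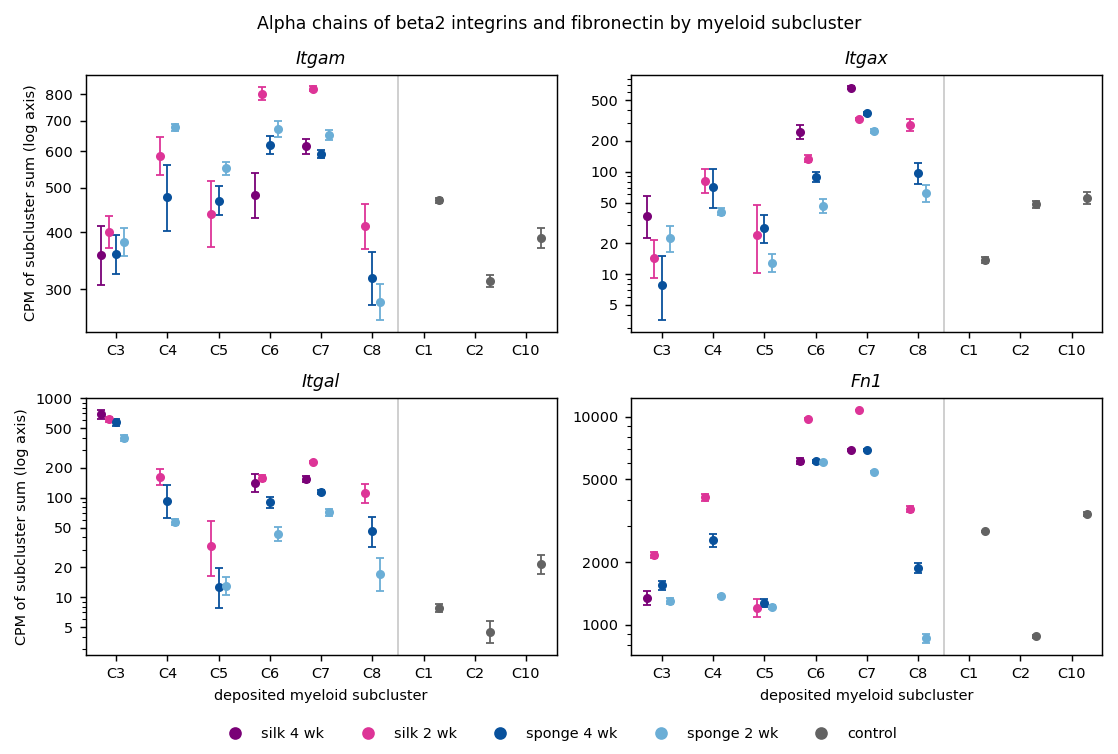
CPM of Itgam, Itgax, Itgal and Fn1 by deposited myeloid subcluster (log axis), 1 point per library with at least 50 cells and its 95% Poisson interval, with control subclusters right of the granuloma ones. Itgax is highest in C7 and Itgal in C3, while Fn1 is highest in C6 and C7.

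Between materials, Itgb2, Itgax, Itgal and Fn1 of 14 members that passed were higher in Mo-Mac cells of silk than of sponge at 2 weeks, beside 4.32% of all genes. None of 12 was called at 4 weeks, beside 0.699%. For Itgal the log2 ratio of silk to sponge was 1.78 (1.71 to 1.84) at 2 weeks and 0.60 (0.50 to 0.70) at 4 weeks. For Itgax it was 1.68 (1.63 to 1.74) at 2 weeks and 0.96 (0.89 to 1.02) at 4 weeks, just inside the 2-fold bound. Within subclusters at 2 weeks, Itgal was above 0 in 6 of 6 and called higher in C4, C6, C7 and C8. Itgax was above 0 in 4 of 4 subclusters where it passed and called higher in C6 and C8, with a log2 ratio of 0.40 (0.34 to 0.46) in C7. The share of all genes called either way was 1.31% in C3, 2.43% in C4, 3.93% in C5, 1.89% in C6, 1.48% in C7 and 5.78% in C8.

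Between times in sponge, Itgax and Fn1 of 13 members that passed were higher at 4 than at 2 weeks, beside 3.93% of all genes. In silk none of 13 was called, beside 1.15%. The log2 ratio of Itgax was 1.59 (1.53 to 1.65) in sponge and 0.86 (0.80 to 0.92) in silk.

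Neutrophils carried the same 4 chains. Itgal had 397 CPM in 4-week silk, 397 in 2-week silk, 488 in 4-week sponge and 184 in 2-week sponge. Itgax had 241 CPM in 4-week silk, 148 in 2-week silk, 171 in 4-week sponge and 44.1 in 2-week sponge. The 2-week sponge library was lowest for both. Itgax, Itgal and Fn1 were called higher in silk than in sponge at 2 weeks, of 12 that passed, beside 5.15% of all genes. Itgax and Itgal were called higher at 4 than at 2 weeks in sponge, of 10, beside 12.3%. Itgax had only 20 UMIs in the 69 Neutrophils of 4-week silk, and its log2 ratio to 2-week silk was 0.71 (-0.04 to 1.37). Itgam had 506 CPM in 4-week silk, 524 in 2-week silk, 465 in 4-week sponge and 559 in 2-week sponge, and Itgb2 had 602 CPM in 4-week silk, 677 in 2-week silk, 322 in 4-week sponge and 392 in 2-week sponge. Neither was called.

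The deposited neutrophil subcluster N3 carried macrophage markers, summing to 13095 CPM in 2-week silk and 11819 in 2-week sponge. It held 99 of the 207 Itgax UMIs of 2-week silk and 34 of the 105 of 2-week sponge. Without N3, Itgax had 238 CPM in 4-week silk, 105 in 2-week silk, 174 in 4-week sponge and 41.3 in 2-week sponge. Its log2 ratio of silk to sponge at 2 weeks was then 1.35 (0.90 to 1.80), that of Itgal was 1.10 (0.89 to 1.31), and both met the call. Over all Neutrophils Itgb1 had 96.3 CPM in 4-week silk, 108 in 2-week silk, 79.5 in 4-week sponge and 143 in 2-week sponge, and Itga4 had 72.3 CPM in 4-week silk, 69.9 in 2-week silk, 74.8 in 4-week sponge and 42.4 in 2-week sponge. Neither was called between materials or times.

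In Neutrophils Fn1 had 193 CPM in 4-week silk, 2437 in 2-week silk, 414 in 4-week sponge and 812 in 2-week sponge. It was the 1 member of 5 called between materials at 4 weeks, where it was lower in silk, beside 12.2% of all genes. The 4-week silk level of Fn1 rests on 16 UMIs in 69 cells, of which 1 cell was of subcluster N3. With Itgav and Itga5, Fn1 was called lower at 4 than at 2 weeks in silk, of 10, beside 20%. Itgav and Itga5 had 1 UMI each in 4-week silk. Itgav had 12.04 CPM in 4-week silk, 62.8 in 2-week silk, 23.4 in 4-week sponge and 52.5 in 2-week sponge, and Itga5 had 12.04 CPM in 4-week silk, 48.5 in 2-week silk, 44.4 in 4-week sponge and 42.4 in 2-week sponge. Subcluster N3 held 8780.0 CPM of Fn1 in 2-week silk and 2626 in 2-week sponge. Without N3, Fn1 had 50.2 CPM in 4-week silk, 140.0 in 2-week silk, 174 in 4-week sponge and 113 in 2-week sponge.

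The α4 and β7 chains pair as a gut-homing receptor, and α4 also pairs with β1. In Mo-Mac cells Itga4 had 138 CPM in 4-week silk, 102 in 2-week silk, 85.6 in 4-week sponge, 71.7 in 2-week sponge and 132 in the control. Itgb7 had 33.4 CPM in 4-week silk, 30.1 in 2-week silk, 30.8 in 4-week sponge, 66.0 in 2-week sponge and 110.0 in the control. Every granuloma lay below the control for Itgb7, and the call was met in 3 of 4, with log2 ratios of -1.72 (-1.92 to -1.52) in 4-week silk, -1.87 (-1.95 to -1.78) in 2-week silk and -1.84 (-1.96 to -1.72) in 4-week sponge. C3 held 196 to 214 CPM of Itgb7 in the 4 granulomas. Itga9, which binds tenascin and VCAM-1, had 5.99 CPM in 4-week silk, 12.3 in 2-week silk, 11.1 in 4-week sponge, 28.5 in 2-week sponge and 6.86 in the control in Mo-Mac cells. The 2-week sponge library was highest for Itga9, which was not called.

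Among lymphocytes of the NK/T class Itgb7 had 410.3 CPM in 4-week silk, 296 in 2-week silk, 302 in 4-week sponge, 165 in 2-week sponge and 221 in the control. Itga4 had 294 CPM in 4-week silk, 318 in 2-week silk, 219 in 4-week sponge, 228 in 2-week sponge and 475 in the control, and it was called lower in both sponge libraries. Itgae encodes αE, which binds E-cadherin and marks lymphocytes held in tissue. It had 45.3 CPM in 4-week silk, 41.5 in 2-week silk, 48.2 in 4-week sponge, 19.7 in 2-week sponge and 3.16 in the control. All 4 granulomas were above the control, but these levels rest on 18, 36, 47, 37 and 4 UMIs in that order, and the call was met only in 4-week sponge. Itga2, the α2 chain of VLA-2 and the DX5 antigen of mouse NK cells, had 42.8 CPM in 4-week silk, 92.1 in 2-week silk, 65.7 in 4-week sponge, 56.0 in 2-week sponge and 58.5 in the control. It ran between 101 and 190.0 CPM in cells with no UMI of 4 T cell markers, and between 10.4 and 39.1 CPM in cells with one.

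Of the β2 integrins in NK/T cells, Itgb2 had 267 CPM in 4-week silk, 356 in 2-week silk, 235 in 4-week sponge, 265 in 2-week sponge and 283 in the control. Itgal had 471 CPM in 4-week silk, 565 in 2-week silk, 486 in 4-week sponge, 405 in 2-week sponge and 336 in the control, with every granuloma above the control by less than 2-fold. Itgam had 62.9 CPM in 4-week silk, 164 in 2-week silk, 94.4 in 4-week sponge, 80.5 in 2-week sponge and 156 in the control and was called lower in 4-week silk than in the control, from 25 UMIs in 4-week silk. The macrophage marker sum of these cells was 1143, 1616, 954, 1218 and 4597 CPM in the same order of libraries, highest in the control, and its part in the Itgam level was not tested.

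The matrix receptors of NK/T cells lay on both sides of the control. Itgb1 had 367 CPM in 4-week silk, 367 in 2-week silk, 259 in 4-week sponge, 379 in 2-week sponge and 453 in the control with no call. Itga6, the laminin receptor chain, had 65.4 CPM in 4-week silk, 58.7 in 2-week silk, 28.7 in 4-week sponge, 28.8 in 2-week sponge and 83.9 in the control, and both sponge libraries were called lower than the control. Itgb3, the vitronectin receptor β chain, had 75.5 CPM in 4-week silk, 84.1 in 2-week silk, 90.3 in 4-week sponge, 58.7 in 2-week sponge and 33.2 in the control. Every granuloma lay above the control for Itgb3, and the call was met in 2-week silk and 4-week sponge.

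The αv chain pairs with β1, β3, β5, β6 or β8 to bind RGD motifs, and αvβ8 releases active TGF-β from its latent form. Itgav lies at chr2:83724397-83806916 on the plus strand and Itgb8 at chr12:119158022-119238802 on the minus strand. Sequences before the RefSeq starts of these genes are shown because both were detected in the NK/T class of each granuloma. The Itgb8 window lies inside the gene span given above, whose start differs from the RefSeq start.
Itgav promoter, chr2:83724147-83724396, plus strand: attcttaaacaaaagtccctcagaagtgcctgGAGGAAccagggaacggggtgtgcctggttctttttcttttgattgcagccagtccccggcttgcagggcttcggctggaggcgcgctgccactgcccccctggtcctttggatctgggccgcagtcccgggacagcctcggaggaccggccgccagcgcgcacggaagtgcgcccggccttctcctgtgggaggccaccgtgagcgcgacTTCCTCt
Itgb8 promoter, chr12:119238277-119238526, minus strand: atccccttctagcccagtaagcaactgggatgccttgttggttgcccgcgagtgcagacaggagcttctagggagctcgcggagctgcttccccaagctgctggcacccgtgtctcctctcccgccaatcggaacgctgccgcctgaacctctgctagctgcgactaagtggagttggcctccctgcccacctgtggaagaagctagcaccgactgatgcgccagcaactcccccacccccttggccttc
These are 250 bases before the RefSeq starts (GRCm38.p6), with the ETS core on either strand in capitals. The Itgav window held 2 matches and the Itgb8 window held none.

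In NK/T cells Itgav had 201 CPM in 4-week silk, 295 in 2-week silk, 207 in 4-week sponge, 101 in 2-week sponge and 35.6 in the control. Every granuloma was above the control, and the log2 ratios to it were 2.50 (1.96 to 3.06), 3.05 (2.59 to 3.54), 2.54 (2.07 to 3.04) and 1.50 (1.03 to 2.004) in that order. Itgb8 had 131 CPM in 4-week silk, 76.0 in 2-week silk, 47.2 in 4-week sponge and 12.8 in 2-week sponge, and no UMI in the control. The limit that 3 counts set in the control library is 2.37 CPM, so against that limit the measured level of Itgb8 was at least 55.1-fold higher in 4-week silk, 32.0-fold in 2-week silk, 19.9-fold in 4-week sponge and 5.39-fold in 2-week sponge, before the counting error of these levels. With that error included, the lower 95% bounds of the log2 ratio were 5.44, 4.66, 3.96 and 2.02 in the same order. Itgb8 was called against the control only in the silk libraries. The 4-week and 2-week sponge libraries, with 46 and 24 UMIs against 0 in the control, did not reach the 50 UMIs of the filter. With 50 CPM added in place of 10, or with at least 100 UMIs and 50 CPM required, neither Itgav against the control nor Itgb8 between materials was called in every contrast.

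The order of Itgb8 was 4-week silk, 2-week silk, 4-week sponge and 2-week sponge, with 52, 66, 46 and 24 UMIs behind these levels. The log2 ratio of silk to sponge was 1.47 (0.87 to 2.08) at 4 weeks, where Itgb8 was the 1 member of 15 called beside 2.06% of all genes. It was 2.57 (1.88 to 3.31) at 2 weeks, where Itgav and Fn1 were also higher, of 18, beside 3.25%. That of 4 to 2 weeks was 1.88 (1.14 to 2.66) in sponge, as the 1 member of 17 called beside 5.39%, and 0.78 (0.23 to 1.33) in silk, where Itgam and Fn1 were lower, of 15, beside 3.89%. The share of NK/T cells with a UMI of Itgb8 was 10.5% in 4-week silk (6.10% to 16.4%), 11.2% in 2-week silk (7.68% to 15.6%), 5.54% in 4-week sponge (3.26% to 8.72%) and 2.81% in 2-week sponge (1.51% to 4.76%), and 0 of 367 control cells had one, where 3 cells would be 0.817%. After thinning the granuloma shares were 7.14%, 6.75%, 2.16% and 0.230%. In Mo-Mac cells the unthinned shares were 0.670%, 0.830%, 0.543%, 0.576% and 0.347% in the order of libraries, the control last. Median depth per NK/T cell was 2369, 2553, 2526, 3109.5 and 2725 UMIs in that order.

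Regulatory T cells, which express Foxp3, are a known site of αvβ8 in the mouse. Among NK/T cells Foxp3 had 95.6 CPM in 4-week silk, 97.9 in 2-week silk, 89.3 in 4-week sponge, 29.3 in 2-week sponge and 6.33 in the control. The cells were divided, after the values above were seen, into those with a Foxp3 UMI (18, 38, 32 and 30 cells in the granulomas, and 3 in the control) and the remainder. With a Foxp3 UMI, Itgb8 had 352 CPM in 4-week silk, 300.04 in 2-week silk, 305 in 4-week sponge and 119 in 2-week sponge. Without one it had 100.3 CPM in 4-week silk, 28.0 in 2-week silk, 10.5 in 4-week sponge, 4.04 in 2-week sponge and 0 in the control. Cells with no UMI of the T cell markers held 1 UMI of Itgb8 over the granulomas. Lamc1 had 228, 209, 239 and 133 CPM with a Foxp3 UMI, and 54.4, 26.6, 45.7 and 27.7 CPM without, so the values did not overlap. Itgal lay the other way, between 175 and 207 CPM with a Foxp3 UMI and between 424 and 643 CPM without.

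With a Foxp3 UMI, Itgav had 601 CPM in 4-week silk, 868 in 2-week silk, 800.3 in 4-week sponge and 343 in 2-week sponge. Without one it had 146 CPM in 4-week silk, 172 in 2-week silk, 123 in 4-week sponge, 80.8 in 2-week sponge and 35.1 in the control, and the call against the control was met in all 4 granulomas. A cell can express Foxp3 without a UMI of it, and the part of such cells in the remainder was not tested. The macrophage marker sum in NK/T cells was 1143, 1616, 954 and 1218 CPM in the granulomas and 4597 CPM in the control, and its part in these contrasts was not tested.

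**Figure D4:**
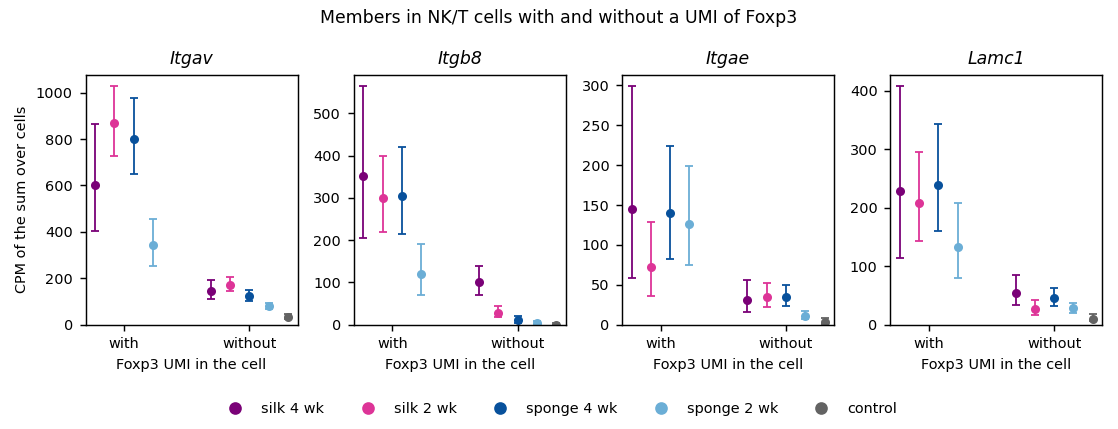
CPM of Itgav, Itgb8, Itgae and Lamc1 in NK/T cells with and without a Foxp3 UMI, 1 point per library with its 95% Poisson interval, on axes that start at 0 and with no control point among cells with a UMI, since the control had 3. All 4 genes are higher with a UMI than without in each of the 4 granulomas.

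In Mo-Mac cells Itgav had 80.1 CPM in 4-week silk, 136 in 2-week silk, 101 in 4-week sponge, 122 in 2-week sponge and 40.5 in the control. It was above the control in each granuloma and met the call in 3 of 4, with 4-week silk as the exception. Itgb5, the αv partner that binds vitronectin, had 93.7 CPM in 4-week silk, 82.2 in 2-week silk, 72.5 in 4-week sponge, 61.9 in 2-week sponge and 111 in the control. It was below the control in each granuloma by less than 2-fold. Itgb3, the β chain of the platelet and osteoclast integrins, had 1.89 CPM in 4-week silk, 1.78 in 2-week silk, 3.36 in 4-week sponge, 1.99 in 2-week sponge and 1.56 in the control and did not pass the filter.

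Fibroblasts carried the αv chain with β3 and β5. Itgav had 170.1 CPM in 4-week silk, 205 in 2-week silk, 142 in 4-week sponge and 161 in 2-week sponge, Itgb3 had 88.4 CPM in 4-week silk, 104 in 2-week silk, 76.9 in 4-week sponge and 74.3 in 2-week sponge, and Itgb5 had 195 CPM in 4-week silk, 190.0 in 2-week silk, 178 in 4-week sponge and 138 in 2-week sponge. None of these was called between materials or times. Itga2b, the platelet chain αIIb, had 21.5 CPM in 4-week silk, 15.04 in 2-week silk, 22.7 in 4-week sponge and 19.7 in 2-week sponge in Fibroblasts, and reached 0.175 to 1.30 CPM in Mo-Mac cells. Itga9 had 20.4 CPM in 4-week silk, 19.6 in 2-week silk, 16.02 in 4-week sponge and 17.0 in 2-week sponge, and the laminin receptor chain Itga6 had 19.3 CPM in 4-week silk, 4.14 in 2-week silk, 8.85 in 4-week sponge and 7.02 in 2-week sponge. Both stayed low in Fibroblasts without a call, as did Itgb7, which had 7.18 CPM in 4-week silk, 2.86 in 2-week silk, 2.21 in 4-week sponge and 3.09 in 2-week sponge.

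In Endothelial cells Itgav had 76.9 CPM in 4-week silk, 114 in 2-week silk, 111 in 4-week sponge and 93.2 in 2-week sponge, Itgb3 had 34.4 CPM in 4-week silk, 43.0 in 2-week silk, 55.7 in 4-week sponge and 55.9 in 2-week sponge and Itgb5 had 6.34 CPM in 4-week silk, 10.3 in 2-week silk, 8.51 in 4-week sponge and 14.8 in 2-week sponge. No call was made for any of the 3. In Myocytes Itgav had 88.8 CPM in 4-week sponge and 127 in 2-week sponge, Itgb3 had 35.1 CPM in 4-week sponge and 32.7 in 2-week sponge and Itgb5 had 132 CPM in 4-week sponge and 83.7 in 2-week sponge.

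Itgb1 encodes the β1 chain shared by most matrix receptors. In Mo-Mac cells it had 312 CPM in 4-week silk, 363 in 2-week silk, 299 in 4-week sponge, 318 in 2-week sponge and 399 in the control, with no call. Its partner Itga5 (chr15:103344286-103366763, minus strand) encodes the classical fibronectin receptor chain. It had 99.4 CPM in 4-week silk, 115 in 2-week silk, 91.2 in 4-week sponge, 90.7 in 2-week sponge and 38.1 in the control. The 4 granulomas were close together and all above the control, and the log2 ratios to it were 1.38 (1.26 to 1.51), 1.59 (1.52 to 1.66), 1.26 (1.18 to 1.35) and 1.25 (1.18 to 1.32) in that order. The share of Mo-Mac cells with a UMI of Itga5, after thinning, was 9.03%, 10.99%, 8.58% and 8.80% in the granulomas and 3.63% in the control.

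In Fibroblasts Itgb1 had 463 CPM in 4-week silk, 705 in 2-week silk, 457 in 4-week sponge and 538 in 2-week sponge. Itga5 had 116 CPM in 4-week silk, 215 in 2-week silk, 188 in 4-week sponge and 200.4 in 2-week sponge. The 4-week silk library was lowest for Itga5, and neither gene was called in the class. By subcluster, Itga5 ran between 58.6 and 176 CPM in F1, led by Clec3b and Sfrp4, and between 168 and 249 CPM in F2, led by Cxcl5 and Col6a3. In F1 it was called lower in 4-week silk than in 4-week sponge, with a log2 ratio of -1.18 (-1.55 to -0.83), beside 2.67% of all genes.

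In Endothelial cells Itgb1 had 582 CPM in 4-week silk, 715 in 2-week silk, 550.1 in 4-week sponge and 732 in 2-week sponge. Itga5 had 170.1 CPM in 4-week silk, 181 in 2-week silk, 187 in 4-week sponge and 157 in 2-week sponge, and the collagen receptor chain Itga2 had 19.0 CPM in 4-week silk, 32.0 in 2-week silk, 26.1 in 4-week sponge and 26.5 in 2-week sponge. None was called there between materials or times. In Myocytes Itgb1 had 709 CPM in 4-week sponge and 1046 in 2-week sponge, and Itga5 had 154 CPM in 4-week sponge and 110.3 in 2-week sponge.

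The collagen receptor chain Itga1 (chr13:114953096-115101964, minus strand) had 89.2 CPM in 4-week silk, 64.9 in 2-week silk, 44.6 in 4-week sponge and 15.98 in 2-week sponge in Fibroblasts. Both silk libraries were above both sponge libraries, and 2-week sponge stood lowest. Itga1 and Itgb2 were called higher in 2-week silk than in 2-week sponge and Lama2 was called lower, of 16 members that passed, beside 2.62% of all genes. The log2 ratio of Itga1 was 2.02 (1.86 to 2.18) there. None of 15 was called at 4 weeks, beside 2.40%. Itga1 was the 1 member of 17 called between 4 and 2 weeks in sponge, beside 1.33%, with a log2 ratio of 1.48 (1.33 to 1.63). In F1 it had 46.1 CPM in 4-week silk, 44.7 in 2-week silk, 17.0 in 4-week sponge and 9.22 in 2-week sponge, and in F2 130.2 CPM in 4-week silk, 68.9 in 2-week silk, 77.8 in 4-week sponge and 37.0 in 2-week sponge. Part of its exons, 685 bases, is shared with Gm49395 on the same strand, and how the counting divided such reads is not given in the sources used here.

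Macrophages carried Itga1 as well. In Mo-Mac cells it had 14.7 CPM in 4-week silk, 29.6 in 2-week silk, 24.8 in 4-week sponge, 48.9 in 2-week sponge and 3.73 in the control. All 4 granulomas lay above the control with 2-week sponge highest, and the log2 ratios to the control came to 1.98 (1.62 to 2.32), 2.99 (2.80 to 3.18), 2.73 (2.52 to 2.95) and 3.71 (3.53 to 3.90) in that order. Only 2-week sponge met the call, since the remaining contrasts did not reach the mean of 20 CPM. In 2-week sponge Itga1 had 97.1 CPM in C6, 89.5 in C3, 74.9 in C4, 19.0 in C8, 17.8 in C7 and 6.74 in C5, and C1 of the control held 3.69 CPM. Fibroblasts of 2-week sponge, at 15.98 CPM, were below the Mo-Mac class of that library.

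Itga11, the collagen receptor chain of mesenchymal cells, had 27.6 CPM in 4-week silk, 7.08 in 2-week silk, 10.3 in 4-week sponge and 10.8 in 2-week sponge in Fibroblasts. In F1 it had 55.3 CPM in 4-week silk, 29.5 in 2-week silk, 19.1 in 4-week sponge and 11.8 in 2-week sponge, and in F2 it lay between 1.62 and 15.5 CPM. In Endothelial cells Itga1 had 305 CPM in 4-week silk, 174 in 2-week silk, 186 in 4-week sponge and 259.5 in 2-week sponge. In Myocytes it had 674 CPM in 4-week sponge and 665 in 2-week sponge. Itga8, which binds nephronectin, had 2.07 CPM in 4-week sponge and 10.3 in 2-week sponge in Myocytes, resting on 2 and 37 UMIs.

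Of the laminin receptor chains, Itga6 had its highest class level in Endothelial cells and was the member called lower in granuloma Mo-Mac cells. Itga6 (chr2:71745616-71858416, plus strand) encodes α6, which pairs with β1 or β4 to bind laminins. In Mo-Mac cells it had 12.8 CPM in 4-week silk, 12.1 in 2-week silk, 14.7 in 4-week sponge, 17.8 in 2-week sponge and 56.5 in the control. All 4 granulomas lay below the control, and the log2 ratios to it were -2.15 (-2.48 to -1.83), -2.23 (-2.36 to -2.10), -1.94 (-2.12 to -1.78) and -1.67 (-1.78 to -1.55) in that order. UMIs of Itga6 were in 6.60%, 4.95%, 5.34% and 7.07% of the cells from granulomas and in 26.2% of the control cells, and after thinning in 1.99%, 0.999%, 1.69% and 1.43% against 4.56%. Within the control it had 58.8 CPM in C1, 63.2 in C2 and 3.34 in C10, and in C3 it had no UMI in any of the 4 granulomas.

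In Endothelial cells Itga6 had 468 CPM in 4-week silk, 373 in 2-week silk, 486 in 4-week sponge and 370.4 in 2-week sponge. Both 4-week libraries were above both 2-week libraries, by less than 2-fold. Itgb4, at chr11:115974709-116008412 on the plus strand, encodes the partner that forms hemidesmosomes with α6 in epithelium. It had 147 CPM in 4-week silk, 78.2 in 2-week silk, 117 in 4-week sponge and 26.6 in 2-week sponge. Itgb4 and Fn1 were called higher in silk than in sponge at 2 weeks, of 20 that passed, beside 2.90% of all genes, with a log2 ratio of 1.55 (1.30 to 1.81) for Itgb4. It was the 1 member of 20 called between 4 and 2 weeks in sponge, beside 4.07%, with a log2 ratio of 2.14 (1.90 to 2.39). In silk the log2 ratio of 4 to 2 weeks was 0.91 (0.62 to 1.18) and was not called.

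The lymphatic markers of the Endothelial class differed between libraries. The summed level of 4 of them (Prox1, Lyve1, Mmrn1 and Flt4) was 2766 CPM in 4-week silk, 1428 in 2-week silk, 1712 in 4-week sponge and 176 in 2-week sponge. The cells were divided by these UMIs, after the class values were seen. Among cells with none, Itgb4 had 182 CPM in 4-week silk, 65.6 in 2-week silk, 74.8 in 4-week sponge and 30.3 in 2-week sponge. Its log2 ratio of 4 to 2 weeks was then 1.47 (1.09 to 1.85) in silk and 1.31 (0.94 to 1.66) in sponge, and both met the call. Itga9 had 185, 117, 128 and 36.05 CPM in cells with at least 2 lymphatic UMIs, and 24.5, 23.7, 19.98 and 28.0 CPM in cells with none, in the same order of libraries. Over the whole class Itga9 had 83.3 CPM in 4-week silk, 53.5 in 2-week silk, 66.4 in 4-week sponge and 30.9 in 2-week sponge. The levels with and without lymphatic UMIs did not overlap. Itga1 lay lower in the lymphatic cells, between 69.5 and 209 CPM, than in cells with none, between 242 and 390.4 CPM.

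Itga3, a further laminin-binding chain, had 38.9 CPM in 4-week silk, 33.2 in 2-week silk, 33.5 in 4-week sponge and 39.3 in 2-week sponge in Endothelial cells. Itga7, the laminin receptor chain of muscle, had 89.8 CPM in 4-week sponge and 80.4 in 2-week sponge in Myocytes and 0 to 2.15 CPM in Endothelial cells. Itga6 had 309.8 CPM in 4-week sponge and 231 in 2-week sponge in Myocytes, and Itga9 had 18.6 CPM in 4-week sponge and 30.4 in 2-week sponge. The class deposited as Myocyte carried mural cell markers. All 6 mural cell markers were detected, summing to 5966 CPM in 4-week sponge and 7591 in 2-week sponge. Of the skeletal muscle genes, Myh4 and Ckm were at 0 in both, and the levels of Acta1 and Des are not given here. No member was called there between 4 and 2 weeks, of 24 that passed, beside 2.64% of all genes.

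In order to see which cells carried basement membrane transcripts, laminin chains and nidogens were examined across the stromal and vessel classes. Lama4 and Lama5 are the α chains of endothelial basement membranes. Lama4 had 479.6 CPM in 4-week silk, 403 in 2-week silk, 449.8 in 4-week sponge and 307 in 2-week sponge in Endothelial cells with at least 2 lymphatic UMIs, against 133 to 150.2 CPM in cells with none. Lama5 showed the opposite order, at 31.3 to 48.1 CPM with lymphatic UMIs and 92.0 to 168 CPM with none. The ranges did not overlap for either gene. Over the whole Endothelial class Lama4 had 254 CPM in 4-week silk, 235 in 2-week silk, 301 in 4-week sponge and 183 in 2-week sponge, and Lama5 had 115 CPM in 4-week silk, 106 in 2-week silk, 96.9 in 4-week sponge and 78.7 in 2-week sponge.

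The remaining chains of the Endothelial class were not called. Lamb1 had 227 CPM in 4-week silk, 206 in 2-week silk, 225 in 4-week sponge and 189 in 2-week sponge, Lamb2 had 127 CPM in 4-week silk, 84.6 in 2-week silk, 95.5 in 4-week sponge and 63.5 in 2-week sponge, and Lamc1 had 253 CPM in 4-week silk, 293 in 2-week silk, 290.2 in 4-week sponge and 262 in 2-week sponge. The 2-week sponge library was lowest for Lamb1 and Lamb2. Nid1 had 256 CPM in 4-week silk, 328 in 2-week silk, 315 in 4-week sponge and 337 in 2-week sponge, and Nid2 had 60.6 CPM in 4-week silk, 66.2 in 2-week silk, 103 in 4-week sponge and 83.1 in 2-week sponge. For Nid1 the 4-week silk library was lowest.

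Myocytes held the same chains. Lama2 had 48.5 CPM in 4-week sponge and 64.5 in 2-week sponge, Lama4 had 219 CPM in 4-week sponge and 182 in 2-week sponge, and Lama5 had 69.2 CPM in 4-week sponge and 65.0 in 2-week sponge. Lamb1 had 199 CPM in 4-week sponge and 184 in 2-week sponge, Lamb2 had 172 CPM in 4-week sponge and 122 in 2-week sponge, and Lamc1 had 298 CPM in 4-week sponge and 298 in 2-week sponge. Nid1 had 394 CPM in 4-week sponge and 542 in 2-week sponge, and Nid2 had 106 CPM in 4-week sponge and 72.6 in 2-week sponge. Each of these 8 genes differed by less than 2-fold between the times.

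**Figure D5:**
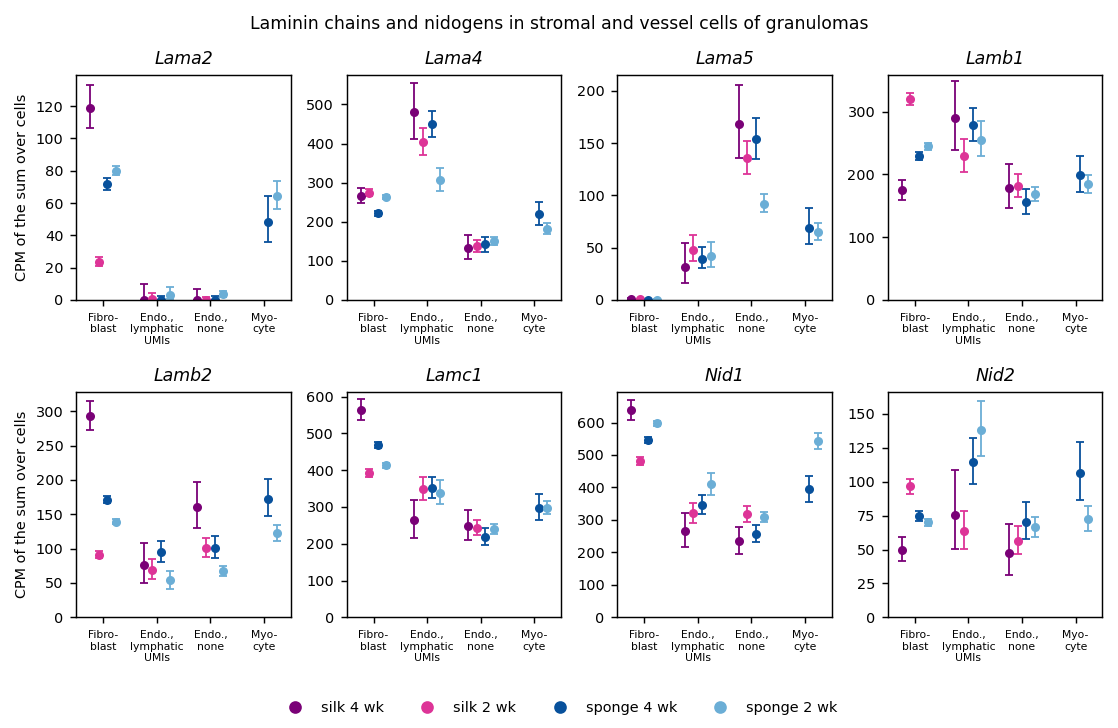
CPM of 6 laminin chains and both nidogens in Fibroblasts, Endothelial cells with at least 2 lymphatic marker UMIs, Endothelial cells with none, and Myocytes, 1 point per granuloma library with at least 50 cells and its 95% Poisson interval, on axes that start at 0. Lama4 and Lama5 separate the Endothelial sets in opposite directions, and Lama2 and Lamb2 of Fibroblasts are lowest in 2-week silk.

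Fibroblasts of 2-week silk had the lowest level of Lama2 and Lamb2. Lama2 (chr10:26980036-27619758, minus strand), the chain of muscle and mesenchymal laminins, had 119 CPM in 4-week silk, 23.6 in 2-week silk, 71.6 in 4-week sponge and 80.1 in 2-week sponge. Lamb2 (chr9:108479736-108490530, plus strand), the β2 chain, had 293 CPM in 4-week silk, 91.3 in 2-week silk, 171 in 4-week sponge and 139 in 2-week sponge. The 4-week silk library was highest for both, so the sponge libraries lay between the silk ones. Both were called higher at 4 than at 2 weeks in silk and Itgb2 lower, of 15 that passed, beside 6.48% of all genes. The log2 ratio was 2.34 (2.10 to 2.57) for Lama2 and 1.68 (1.55 to 1.81) for Lamb2. Silk against sponge at 2 weeks gave -1.77 (-1.94 to -1.59) for Lama2.

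Fibroblast subclusters differed in laminin levels and in number. The 4-week silk library had 126 cells of F1 and 58 of F2, while 2-week silk had 105 of F1 and 457 of F2. In F1, Lama2 had 171 CPM in 4-week silk, 68.0 in 2-week silk, 105 in 4-week sponge and 110.3 in 2-week sponge. In F2 it had 77.1 CPM in 4-week silk, 19.9 in 2-week silk, 44.8 in 4-week sponge and 25.5 in 2-week sponge. F1 was above F2 in each library, and 2-week silk was lowest in both. The log2 ratio of silk at 4 to silk at 2 weeks was 1.33 (0.94 to 1.73) in F1 and 1.95 (1.58 to 2.32) in F2 for Lama2, and 1.33 (1.06 to 1.61) in F1 and 1.38 (1.19 to 1.57) in F2 for Lamb2. These met the call, beside 6.91% of all genes called either way in F1 and 6.81% in F2. Lama2 was also called lower in 2-week silk than in 2-week sponge in F3, with a log2 ratio of -1.43 (-2.01 to -0.90), beside 2.22% of all genes.

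The remaining chains of Fibroblasts were not called between materials or times in the class as a whole. Lama4 had 267 CPM in 4-week silk, 274 in 2-week silk, 222 in 4-week sponge and 262 in 2-week sponge. Lamc1, the γ1 chain present in most laminin trimers, had 563 CPM in 4-week silk, 391 in 2-week silk, 468 in 4-week sponge and 413 in 2-week sponge. Lamb1, the β1 laminin chain, had 175 CPM in 4-week silk, 319.5 in 2-week silk, 229.9 in 4-week sponge and 244 in 2-week sponge. Nid1, nidogen-1, had 639 CPM in 4-week silk, 483 in 2-week silk, 546 in 4-week sponge and 598 in 2-week sponge. It ran between 691 and 878 CPM in F1 and between 437 and 492 CPM in F2, with no overlap. Nid2, its paralogue, had 49.9 CPM in 4-week silk, 96.6 in 2-week silk, 75.0 in 4-week sponge and 70.0 in 2-week sponge. In F2 it was called lower in 4-week silk, with log2 ratios of -1.38 (-1.80 to -0.99) to 2-week silk and -1.40 (-1.82 to -1.01) to 4-week sponge, where 3.19% of all genes was called between materials. In F1 the same ratios were 0.42 (-0.11 to 0.97) and 0.08 (-0.29 to 0.43).

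Among leukocytes Lamc1 and Lamb3 were the laminin chains above 10 CPM in any library. Lamc1 had 15.1 CPM in 4-week silk, 25.1 in 2-week silk, 28.9 in 4-week sponge, 30.6 in 2-week sponge and 9.97 in the control in Mo-Mac cells, and it met the call in 2-week sponge. The fibroblast marker sum in the same cells was 66.7, 108, 555, 418 and 0.659 CPM in that order, and its part in the difference was not tested. Nid1 had 0.315 CPM in 4-week silk, 1.03 in 2-week silk, 4.66 in 4-week sponge, 3.77 in 2-week sponge and 0.323 in the control in these cells.

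In NK/T cells Lamc1 had 75.5 CPM in 4-week silk, 58.7 in 2-week silk, 69.8 in 4-week sponge, 35.7 in 2-week sponge and 11.1 in the control. Every granuloma lay above the control, the log2 ratios to it came to 2.77 (1.81 to 3.80), 2.41 (1.53 to 3.38), 2.66 (1.81 to 3.60) and 1.69 (0.84 to 2.64) in that order, and the call was met in all but 4-week silk, which had under 50 UMIs with the control. These levels rest on 30, 51, 68, 67 and 14 UMIs. The fibroblast marker sum of the same cells was 55.4, 134, 450.4, 521 and 0 CPM in that order, and its part in the Lamc1 levels was not tested. Nid1 and Lamb1 had at most 6.16 and 2.67 CPM in these cells.

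Lamb3, a chain of the epithelial laminin-332, had 72.3 CPM in 4-week silk, 47.1 in 2-week silk, 37.4 in 4-week sponge and 27.3 in 2-week sponge in Neutrophils. Those levels rest on 6, 66, 16 and 65 UMIs, and no call was made. In NK/T cells Lamb3 had 25.2 CPM in 4-week silk, 20.7 in 2-week silk, 32.8 in 4-week sponge, 35.7 in 2-week sponge and 20.6 in the control. Lamb3 spans the neutrophil gene G0s2, which lies on the opposite strand and had 6263, 3849, 3164 and 1545 CPM in the same cells and order. The annotated exons of Lamb3 and G0s2 share 0 bases. Whether counting used strand is not given in the sources used here, and the part of G0s2 reads in the Lamb3 level was not tested. Lama3, another chain of that laminin, stayed between 5.49 and 15.4 CPM in Endothelial cells.

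Fibronectin is both an integrin ligand and a product of macrophages and fibroblasts. Fn1 (chr1:71585520-71653200, minus strand) had 6008 CPM in 4-week silk, 10051 in 2-week silk, 5836 in 4-week sponge, 2769.8 in 2-week sponge and 2488 in the control in Mo-Mac cells. The 2-week silk library stood highest, and 2-week sponge was close to the control. The log2 ratios to the control were 1.27 (1.26 to 1.29), 2.01 (2.01 to 2.02), 1.23 (1.22 to 1.24) and 0.15 (0.14 to 0.17) in that order, so the call was met in 3 of 4 granulomas. For silk against sponge it was 1.86 (1.85 to 1.87) at 2 weeks and 0.04 (0.03 to 0.06) at 4 weeks.

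Within the larger subclusters the ratio between materials was smaller. In C7 Fn1 had 6936 CPM in 4-week silk, 10818 in 2-week silk, 6928 in 4-week sponge and 5456 in 2-week sponge. In C6 it had 6145 CPM in 4-week silk, 9818 in 2-week silk, 6114 in 4-week sponge and 6051 in 2-week sponge, and in C5 1198 to 1277 CPM in the libraries with enough cells. At 2 weeks the log2 ratio of silk to sponge was 0.99 (0.97 to 0.9999) in C7, 0.70 (0.68 to 0.72) in C6 and 1.58 (1.52 to 1.63) in C4, and it was above 0 in 5 of 6 subclusters and called in C4 and C8. C4 held 139 cells in 2-week silk and 2542 in 2-week sponge, while C7 held 4461 in 2-week silk and 1122 in 2-week sponge. In Fibroblasts Fn1 had 8476 CPM in 4-week silk, 5655 in 2-week silk, 7693 in 4-week sponge and 6358 in 2-week sponge with no call, and in Myocytes 962 CPM in 4-week sponge and 669.7 in 2-week sponge.

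In Endothelial cells Fn1 had 706 CPM in 4-week silk, 1276 in 2-week silk, 1186 in 4-week sponge and 602 in 2-week sponge. In NK/T cells it had 564 CPM in 4-week silk, 1172 in 2-week silk, 398 in 4-week sponge, 389.9 in 2-week sponge and 502 in the control. The 2-week silk library was highest in both classes. The macrophage marker sum was 72.4, 1380.2, 821 and 908 CPM in Endothelial cells and 1143, 1616, 954, 1218 and 4597 CPM in NK/T cells in the same orders of libraries. Among the granulomas it was highest in 2-week silk in both classes, but the remaining libraries were not in the order of their Fn1 levels. In NK/T cells the control had the highest sum. The part of these markers in the Fn1 levels was not tested. Vtn encodes vitronectin, mainly a liver product. It had 119.8 CPM in 4-week sponge and 93.0 in 2-week sponge in Myocytes, and in Fibroblasts 17.0 CPM in 4-week silk, 4.46 in 2-week silk, 5.96 in 4-week sponge and 3.82 in 2-week sponge.

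Macrophage markers were set beside Itgb2 in the stromal and vessel classes. F4 is a deposited fibroblast subcluster in which the macrophage marker sum was 5301 CPM in 2-week silk, 5401 in 4-week sponge and 3873 in 2-week sponge, against 64.7 to 428 CPM in F1, F2 and F3. Itgb2 had 294, 226 and 128 CPM in F4 in those libraries. Over all Fibroblasts Itgb2 had 4.91 CPM in 4-week silk, 50.4 in 2-week silk, 23.7 in 4-week sponge and 20.02 in 2-week sponge, and Itgam had 1.13 CPM in 4-week silk, 36.2 in 2-week silk, 18.3 in 4-week sponge and 25.5 in 2-week sponge. Itgax had 2.27 CPM in 4-week silk, 13.5 in 2-week silk, 6.91 in 4-week sponge and 4.58 in 2-week sponge, and Itgal had 1.51 CPM in 4-week silk, 12.02 in 2-week silk, 6.18 in 4-week sponge and 3.29 in 2-week sponge. The 4-week silk library, which had fewer than 50 cells of F4, was lowest for all 4 genes. Without F4, Itgb2 had 1.91 CPM in 4-week silk, 11.7 in 2-week silk, 8.40 in 4-week sponge and 5.63 in 2-week sponge and did not pass the filter, while the calls of Itga1, Lama2 and Lamb2 held. In Endothelial cells Itgb2 was called lower in 4-week silk than in 4-week sponge, as the 1 member of 19, beside 1.63% of all genes. With Itgam it was called lower at 4 than at 2 weeks in silk, of 21, beside 2.81%. Itgb2 had 3.62 CPM in 4-week silk, 77.0 in 2-week silk, 38.2 in 4-week sponge and 34.5 in 2-week sponge there, and Itgam had 0 CPM in 4-week silk, 58.4 in 2-week silk, 39.5 in 4-week sponge and 42.1 in 2-week sponge. The macrophage marker sum was 72.4 CPM in 4-week silk, 1380.2 in 2-week silk, 821 in 4-week sponge and 908 in 2-week sponge, and its part was not tested.

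Genes around the integrins were counted by the same rule. Of 26 adaptor and signalling genes, among them talins, kindlins, paxillin, vinculin and focal adhesion kinase, 17 passed in Mo-Mac cells and none was called in all granulomas against the control, with a median log2 ratio of 0.02 against -0.03 over all genes. The background there was 6.14% of all genes. In NK/T cells 15 passed and none was called, beside 4.23%. Counts of 0 are near what these shares would give for lists of this size. Of 21 other integrin ligands, 6 passed in Mo-Mac cells and Icam1, Spp1, Thbs1 and Tgm2 were higher in each granuloma, beside the same 6.14%, with a median log2 ratio of 2.23.

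Icam1 encodes the counter-receptor of LFA-1 and Mac-1. In Mo-Mac cells it had 77.6 CPM in 4-week silk, 69.4 in 2-week silk, 52.7 in 4-week sponge, 87.9 in 2-week sponge and 10.5 in the control. Among NK/T cells Icam1 had 224 CPM in 4-week silk, 267 in 2-week silk, 178 in 4-week sponge, 146 in 2-week sponge and 41.9 in the control, and was the 1 ligand of 4 that passed to be called there, beside 4.23% of all genes. Spp1, the αv ligand osteopontin, had 2602 CPM in 4-week silk, 4316 in 2-week silk, 4419.5 in 4-week sponge, 5081 in 2-week sponge and 779 in the control in Mo-Mac cells.

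Of 17 other basement membrane genes, 2 passed between materials in Mo-Mac cells, and Sparc was called lower in silk at both times, beside 0.264% of all genes. Sparc encodes a collagen-binding matrix protein of stromal cells, and had 12.1 CPM in 4-week silk, 14.4 in 2-week silk, 82.1 in 4-week sponge and 62.4 in 2-week sponge. The fibroblast marker sum in these cells was 66.7, 108, 555 and 418 CPM in that order, lower in both silk libraries as well. Sparc was also the 1 gene of 1 that passed in Neutrophils (background 1.01%), where it had 48.2 CPM in 4-week silk, 25.7 in 2-week silk, 131 in 4-week sponge and 108 in 2-week sponge beside fibroblast marker sums of 458, 244, 874 and 813 CPM. It was likewise the 1 of 1 in NK/T cells (background 0.358%), where it had 12.6 CPM in 4-week silk, 18.4 in 2-week silk, 83.1 in 4-week sponge and 61.3 in 2-week sponge beside sums of 55.4, 134, 450.4 and 521 CPM. The part of these markers in the Sparc levels was not tested.

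Between 4 and 2 weeks, 7 ligands passed in Mo-Mac cells and Mfge8 and Thbs1 were called in both materials, beside 0.393% of all genes. Mfge8, an αv ligand that bridges dying cells, had 806 CPM in 4-week silk, 171 in 2-week silk, 294 in 4-week sponge and 116 in 2-week sponge and was higher at 4 weeks. Thbs1, thrombospondin-1, had 479.9 CPM in 4-week silk, 979.6 in 2-week silk, 749 in 4-week sponge and 1609.8 in 2-week sponge and was lower at 4 weeks. In Fibroblasts Tgm2 was the 1 of 13 ligands and Col15a1 the 1 of 9 basement membrane genes called, both higher at 4 weeks, beside 0.642%. Tgm2, transglutaminase 2, had 519 CPM in 4-week silk, 151 in 2-week silk, 258 in 4-week sponge and 83.0 in 2-week sponge, and Col15a1 had 875 CPM in 4-week silk, 237 in 2-week silk, 572 in 4-week sponge and 281 in 2-week sponge. In Endothelial cells Spp1 was the 1 ligand of 15 called, lower at 4 weeks, beside 0.857%. It had 14.5 CPM in 4-week silk, 255 in 2-week silk, 118 in 4-week sponge and 368 in 2-week sponge, with the macrophage marker sums given above for that class, and their part was not tested.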

How the data were processed

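The deposited table held UMI counts per gene and cell, which the authors made with Cell Ranger 3.0.0 and Seurat 3.0 on mm10, per the submitters' processing notes. The deposited cell table gave the percent of mitochondrial UMIs, total counts and the authors' clusters. Cell filters, strand use and doublet treatment were not given in any source used here, and no doublet caller was run. The deposited class Mo-Mac/DC is called Mo-Mac here, since subcluster C9 was left out, as were BP, KC and Low quality. 306 cells shared 153 barcode sequences between libraries. Counts were summed per class and library as CPM with exact Poisson intervals. Ratios carry exact conditional binomial intervals, shares Clopper-Pearson intervals, all at 95%, and a share or level of 0 is given with the limit of 3 counts. Printed log2 ratios have no offset, while calls use log2 of CPM + 10, across all genes. With 1 library per group there was no test. The scripts (Python 3.11.15, numpy 2.4.6, scipy 1.17.1, pandas 2.3.3, matplotlib 3.10.9) were tested on simulated data. All 36 members are named. As a rule, values in every library are given for members with at least 100 UMIs in a class within a single library. Listed genes are given where called, at most 4 in each direction per class. Members and lists were chosen with earlier results of these data known. Alternatives changed the offset, the filter, the scaling, the averaging and the cells included. Gene positions are from GENCODE on GRCm38.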

Additional observations from a re-analysis of the deposited data

Results flagged for a closer look

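In Neutrophils, the log2 ratio of Fn1 between silk and sponge, on the scale with 10 CPM added to both levels, was 1.57 at 2 weeks and -1.06 at 4 weeks. The direction thus differed between the times, each with 1 library per material, and the difference was not tested. The level of Fn1 in 4-week silk rests on 16 UMIs. Without subcluster N3, whose macrophage markers are given above, Fn1 had 50.2 CPM in 4-week silk, 140.0 in 2-week silk, 174 in 4-week sponge and 113 in 2-week sponge.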

How the results depend on the processing

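Over 117 recomputed counts of members called, 101 stayed within 1.5 times the reported count, 16 moved and 0 reversed, and of 204 recomputed log2 ratios 151 stayed, 53 moved and 0 reversed. The cause of these moves was not tested. Most of the reported counts were 0. Such a count can only stay at 0 or move and cannot reverse, so the totals do not measure how stable the called members are. With 50 CPM added in place of 10, granuloma against control called 1 (Itgal) in Mo-Mac cells and 0 in NK/T cells, and silk against sponge 0 in NK/T cells. With 1 CPM added, silk against sponge called 2 (Itgb8 and Itga6) in NK/T cells and 4 against 2 weeks 1 (Itgav) in Neutrophils. With no filter on low counts, granuloma against control called 4 (Itgae, Itgav, Itgb8 and Lamc1) in NK/T cells. With a stricter filter (100 UMIs, and 50 CPM in the higher library), NK/T cells had 0 called against the control and 0 between materials. Without the 10% of cells with most UMIs, granuloma against control called 2 (Itgav and Fn1) in NK/T cells, silk against sponge 1 (Itgax) in Mo-Mac cells, and 4 against 2 weeks 1 (Itgax) in Neutrophils. A mean over cells called 1 (Itgax) between materials in Mo-Mac cells, and median-of-ratios scaling 2 (Itgav and Fn1) between times in Neutrophils. Among alternatives chosen after seeing the data, 4 against 2 weeks called 1 (Itgb4) in Endothelial cells with no lymphatic UMI and 1 (Itgax) in Neutrophils without N3, and silk against sponge called 2 (Itgb8 and Fn1) in NK/T cells with a T cell marker UMI. Of the calls named in this section, only those of Itgav and Fn1 in Neutrophils were lower, both at 4 weeks. Their levels in 4-week silk Neutrophils rest on 1 UMI for Itgav and 16 for Fn1. Median-of-ratios scaling moved the median of all genes by over 0.1 on the log2 scale in 11 contrasts, by 0.15 to 0.28 in Neutrophils, -0.26 for 2-week sponge over control in NK/T cells, and 0.12 to 0.23 in the remaining contrasts. Subclusters weighted equally could not be set against the control and were not run for it, since no subcluster had 50 cells on both sides. No paired analysis was possible because each group had 1 library. Depth limits the smallest sums most, those of Neutrophils and NK/T cells in 4-week silk.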

Other observations

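B cells, compared between no groups, were described in the 744 B cells of the control. There Itga4 had 472 CPM, Itgb7 139, Itgb1 217 and Itgb2 166. Itgam had 109.6 CPM, Itgal 73.3, Itga6 33.6 and Fn1 492. Nid1, a basement membrane gene, had 124 CPM from 502 UMIs. The macrophage marker sum in these cells was 4807 CPM, beside 3459.9 for B cell markers, and its part was not tested.

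Subcluster C9, led by Ccl22, Ccr7, Cma1 and Cpa3, joined genes of dendritic and mast cells and was kept out of the Mo-Mac class. In C9 Itga4 had 477 CPM in 4-week silk, 255 in 2-week silk, 245 in 4-week sponge, 219 in 2-week sponge and 651 in the control. Itgb7 had 145 CPM in 4-week silk, 175 in 2-week silk, 189 in 4-week sponge, 144 in 2-week sponge and 302 in the control. Itgax had 128 CPM in 4-week silk, 156 in 2-week silk, 169 in 4-week sponge, 71.4 in 2-week sponge and 52.5 in the control. Both Itga4 and Itgb7 were higher in C9 of each library than in its Mo-Mac class. The left-out subcluster KC, led by Fmo2, Upk3b, Krt19 and Msln, had 265 CPM of Itgb8 in its 32 cells of 2-week silk, from 59 UMIs.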
